A study of Mus musculus with 4 samples.

Results

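The Notch pathway was followed through 10 genes, chosen by symbol with earlier results of these libraries known: the ligand genes Dll1, Dll3, Jag1 and Jag2, the receptor genes Notch1, Notch2 and Notch3, and the target or target-family genes Hes1, Hes6 and Hey1. They are 10 of the 47633 genes with a deposited value, and each was matched to 1 gene. Total RNA came from mouse embryonic stem (ES) cells, strain 129S2/SvPas, and from their descendants after withdrawal of a cytokine. The ES cells grew in serum with leukaemia inhibitory factor (LIF), the cytokine that holds them undifferentiated, on C57/BL6 embryonic fibroblasts arrested with mitomycin C. There were 4 libraries: ES 1 and ES 2, a 2-day library from cells deprived of LIF for 2 days, and a 5-day library, labelled embryoid body, from cells deprived of it for 5 days. The derived cells carried no other treatment in the labels, which do not say whether feeders were removed before RNA was taken.

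Notch receptors are single-pass membrane proteins that are bound by ligands of the Delta-like and Jagged families on a neighbouring cell. Binding exposes the receptor to ADAM proteases and then to the gamma-secretase complex, and the freed intracellular domain joins the DNA-binding protein RBPJ and Mastermind-like coactivators to switch on genes of the HES and HEY repressor families. In the embryo the pathway is known for lateral inhibition, through which neural progenitors hold back the differentiation of their neighbours, and for the segmentation clock of the presomitic mesoderm. In mouse ES cells Hes1 is also known to be expressed in fluctuating amounts and to respond to signals other than Notch.

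Values were FPKM (fragments scaled by gene length and by library total), which allow levels to be compared between genes. Depth, estimated from the step between low values, was 18.4 M fragments in the 2-day library and 26.9 to 32.0 M in the others. Of the genes, 15676 reached 1 FPKM in 1 or more libraries and were tested. Between ES 1 and ES 2, 684 of them differed 2-fold or more (r = 0.956 across genes, which do not replicate each other). Separate cultures are not stated for the ES pair, so p-values measure only a spread that may be technical, and neither derived library had a replicate. All 8 pluripotency markers listed were at 1 FPKM or more in every library. Their summed level was 2208 and 2215 FPKM in ES cells, 2317 in the 2-day library and 2734 in the 5-day library. Without Dppa5a, the most abundant of them (left out after seeing the data), the sum was 1647 and 1638 FPKM in ES cells, 1512 in the 2-day library and 1598 in the 5-day library. In the 5-day library 5 of the 8 lay above both ES libraries and 3 (Pou5f1, Klf4 and Tdgf1) below both.

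In ES cells the target Hes1 was the most abundant of the 10 transcripts, at 30.0 FPKM in ES 1 and 26.1 in ES 2, and the ligand Dll3 the least, at 1.13 and 0.735 FPKM. Jag1 came second, at 10.1 and 10.9 FPKM. Below it, Notch2 and Notch1 overlapped in range between the ES libraries, as did Hes6 and Dll1, and Jag2 and Notch3. Dll1 (6.08 to 6.54 FPKM) and Jag2 (5.74 to 6.07 FPKM) did not overlap, but their ranges lay closer than the counting error of either gene. ES cells thus held transcripts of ligands and of receptors at like levels, and every member passed the filter of 1 FPKM in at least 1 library.

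**Figure D1:**
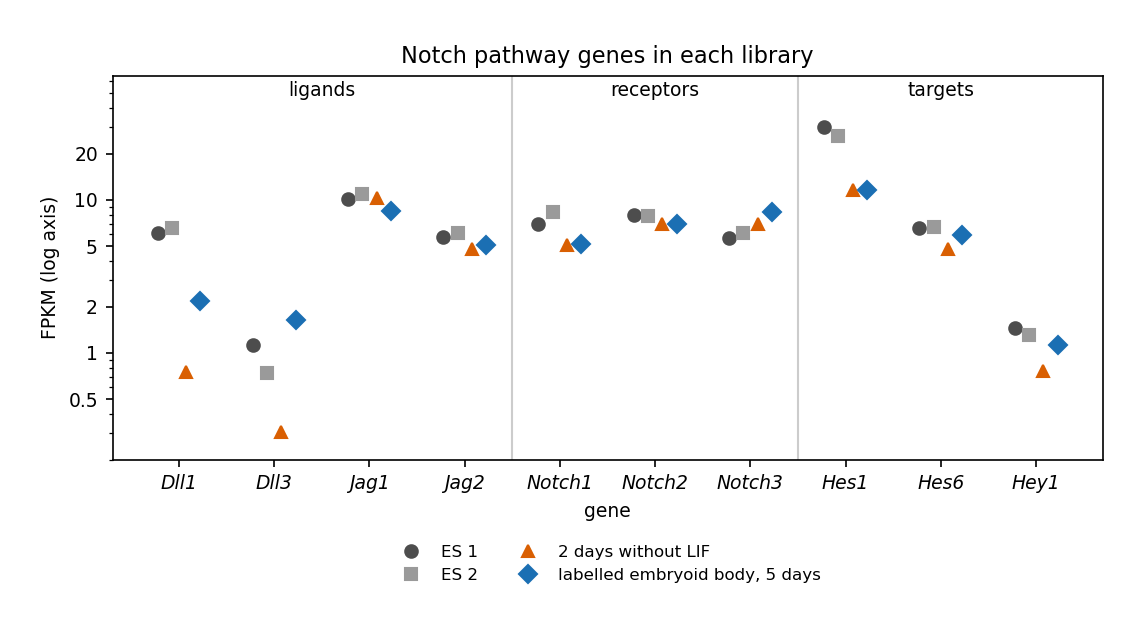
FPKM (log axis) of the 10 genes in each of the 4 libraries, with 1 symbol per library and vertical lines between ligands, receptors and targets. Dll1 was at 6.08 and 6.54 FPKM in ES cells and at 0.754 and 2.18 in the derived libraries, and both derived libraries held Hes1 at 11.7 FPKM against 30.0 and 26.1.

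A member was counted as past 2-fold when the derived library differed on the log2(FPKM + 1) scale by at least 1, with the same sign, from ES 1 and from ES 2. This scale understates the change of low genes. In the 2-day library, 2 of the 10 members were lower by this size rule (Dll1 and Hes1) and 0 were higher, where 0.836% of all 15676 genes were lower and 8.84% higher. In the 5-day library the count was again 2 lower, with the same 2 genes, and 0 higher, against 0.734% and 1.63% of all genes. In either direction the rule took 9.68% and 2.37% of all genes. The members were chosen with these contrasts known, so the counts describe them and no test is given. The median log2 difference of the members was -0.42 in the 2-day library and -0.18 in the 5-day library, beside 0.04 and -0.01 over all genes tested. In the 2-day library 8 members lay below both ES libraries, Notch3 above both and Jag1 between them, while 36.6% of all genes lay below both and 48.4% above both (85.0% in either direction). In the 5-day library 8 members lay below both and Dll3 and Notch3 above both, and 42.9% of all genes lay below and 37.6% above (80.5% in either direction). Both derived libraries were set against the same ES libraries, so the shared position of Dll1 and Hes1 in them is no second measurement. The top 10 genes took up 44.7% of all FPKM in the 2-day library against 9.80% to 17.4% in the others. With the libraries rescaled by the median of gene ratios, the 2-day median of the members was -0.45, beside -0.00 over all genes. Dll1 then differed by -2.08 and Hes1 by -1.24. The part of the top 10 genes in the 2-day differences was not tested. In bulk RNA, fewer cells expressing a gene and less RNA per cell cannot be told apart.

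**Figure D2:**
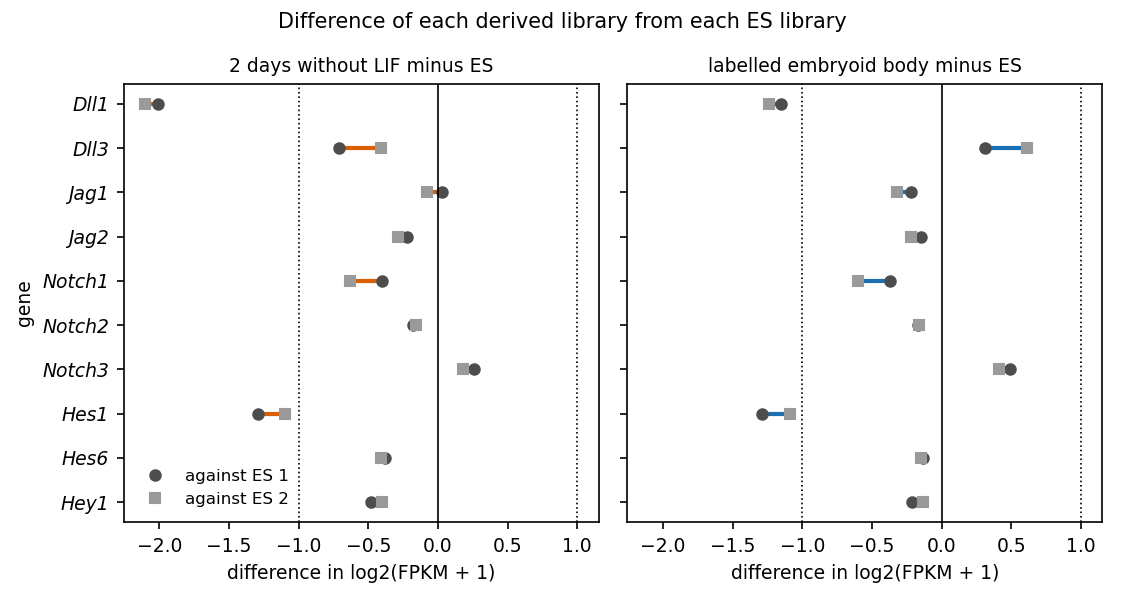
Difference in log2(FPKM + 1) of each derived library from ES 1 (circles) and from ES 2 (squares) for the 10 genes, with a bar between the 2 differences; the solid line marks 0 and dotted lines mark 1 and -1. Dll1 and Hes1 lie past -1 against both ES libraries in both panels, and Notch3 and, on the right, Dll3 lie above 0.

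Dll1 encodes Delta-like 1, an activating ligand that drives lateral inhibition. Its gene (ENSMUSG00000014773.13) lies on chromosome 17, 15367354 to 15376872, minus strand, in mm10. Dll1 was at 6.08 FPKM in ES 1, 6.54 in ES 2, 0.754 in the 2-day library and 2.18 in the 5-day library. It was thus high in both ES libraries, lowest at 2 days and intermediate in the other derived library, and the 3 levels did not overlap. The ES mean of 6.31 ± 0.33 FPKM (SD, n = 2) was 8.36 times the level in the 2-day library and 2.89 times that of the 5-day library, differences of -2.06 and -1.20 on the log2(FPKM + 1) scale. The ES libraries themselves differed by 1.08-fold. Ranked by that difference, Dll1 held position 87 from the lowest of the 15676 genes in the 2-day library and position 159 in the 5-day library. The level of 0.754 FPKM corresponds to about 58 fragments, with an exact 95% Poisson interval of 0.568 to 0.967 FPKM for counting error only, which lies wholly below the interval of 1.92 to 2.47 FPKM in the 5-day library. A non-coding gene on the opposite strand, A930024N18Rik, overlaps Dll1. It was at 0.0635 and 0.0844 FPKM in ES cells, 0.0974 in the 2-day library and 0.0283 in the 5-day library, below Dll1 in each library.

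RefSeq gives Dll1 2 start sites, and their windows are shown because Dll1 was the member with the largest difference; that of Dll3 is shown beside them because it differed from Dll1 in the 5-day library. Each runs from 250 bases before to 50 after the annotated start (GRCm38.p6, minus strand, 5′ to 3′). Capitals mark matches on either strand to the E-box CANNTG, which proneural factors such as NEUROG2 bind, to the class C box CACGCG and the N box CACNAG, which HES and HEY repressors bind, and to the RBPJ site GTGGGAA.
Dll1, chr17:15376883-15377182: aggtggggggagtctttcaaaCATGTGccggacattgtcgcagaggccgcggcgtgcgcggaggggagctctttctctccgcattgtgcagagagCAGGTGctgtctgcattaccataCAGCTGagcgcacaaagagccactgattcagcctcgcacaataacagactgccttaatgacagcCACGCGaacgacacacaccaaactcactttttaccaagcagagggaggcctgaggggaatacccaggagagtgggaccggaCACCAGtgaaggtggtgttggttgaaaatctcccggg
Dll1, chr17:15375774-15376073: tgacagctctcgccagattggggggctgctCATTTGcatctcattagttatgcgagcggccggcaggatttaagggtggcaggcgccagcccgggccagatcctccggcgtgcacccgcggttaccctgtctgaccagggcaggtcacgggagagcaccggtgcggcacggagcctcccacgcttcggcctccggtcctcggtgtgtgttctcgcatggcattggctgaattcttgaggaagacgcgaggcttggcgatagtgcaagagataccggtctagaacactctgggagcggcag
Dll3, chr7:28301736-28302035: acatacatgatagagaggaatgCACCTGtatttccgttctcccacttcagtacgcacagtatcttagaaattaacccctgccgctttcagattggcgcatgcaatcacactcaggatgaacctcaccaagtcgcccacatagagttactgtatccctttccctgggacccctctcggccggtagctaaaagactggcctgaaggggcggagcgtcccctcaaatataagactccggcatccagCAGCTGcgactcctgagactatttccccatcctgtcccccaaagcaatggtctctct

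The upstream Dll1 window held 3 E-boxes, beginning at positions -229, -155 and -132 from the start base (counted as 0), with a class C box at -68 and an N box at 13. The second Dll1 window held 1 E-box and the Dll3 window 2. E-boxes are common: 72.3% of the 32851 RefSeq windows of this length held at least 1, while 42.5% held an N box, 9.27% a class C box and 6.38% the RBPJ site. Windows were given for 8 members (10 windows; Hes1 and Hey1 have none in the table). E-boxes were found for 4 of the 8 (Dll1, Dll3, Hes6 and Jag1), the class C box for 4 (Dll1, Jag1, Jag2 and Notch2), the N box for 5 (Dll1, Hes6, Notch1, Notch2 and Notch3) and the RBPJ site for 0. These are matches of letters and not measured binding.

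Dll3, a divergent ligand that acts inside the cell and is known for inhibiting Notch in the presomitic mesoderm, differed from Dll1 in its order of levels. It was at 1.13 FPKM in ES 1, 0.735 in ES 2, 0.304 in the 2-day library and 1.64 in the 5-day library. The 2-day library was the lowest and the 5-day library the highest of the 4, and the ES libraries lay between them, 1.53-fold apart. The derived libraries differed by 5.40-fold, or 1.02 on the log2(FPKM + 1) scale, where 4.76% of all genes were at least 2-fold higher on that scale in the 5-day library. The low value stands for about 16 fragments (95% interval 0.175 to 0.496 FPKM) and the high one for about 126 (1.37 to 1.96 FPKM), so the 2 do not overlap by counting error. Dll3 was the only member to lie below both ES libraries in 1 derived library and above both in the other.

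The Jagged ligands, which engage the same receptors as the Delta-like ligands, stayed close to their ES levels. Jag1 was at 10.1 and 10.9 FPKM in ES cells, 10.3 in the 2-day library and 8.53 in the 5-day library. Jag2 was at 5.74 and 6.07 FPKM in ES cells, 4.77 and 5.06 in the derived libraries. The 2-day level of Jag1 lay between the ES libraries, and the direction of its difference of -0.02 turned with the setting (from -0.08 to 0.03), so no direction is given for it. All 3 other Jagged values lay below both ES libraries, by 0.19 to 0.27 on the log2(FPKM + 1) scale from the ES mean.

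The make-up of the ligand transcripts therefore differed between libraries. Dll1 held 26.3% of the summed FPKM of Dll1, Dll3, Dll4, Jag1 and Jag2 in ES 1 and 26.9% in ES 2, 4.61% in the 2-day library and 12.5% in the 5-day library. Jag1 held 43.6%, 44.9%, 63.0% and 49.0% in the same order. Shares within a library do not depend on the scaling between libraries. The ligand sum was 23.1 and 24.3 FPKM in ES cells, 16.4 in the 2-day library and 17.4 in the 5-day library, and Jag1 transcripts outnumbered those of Dll1 per length by 1.66-fold, 1.67-fold, 13.7-fold and 3.91-fold. Dll4, an endothelial ligand and no member, was at 0.225 FPKM or less in every library and listed at 0 in the 5-day library.

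**Figure D3:**
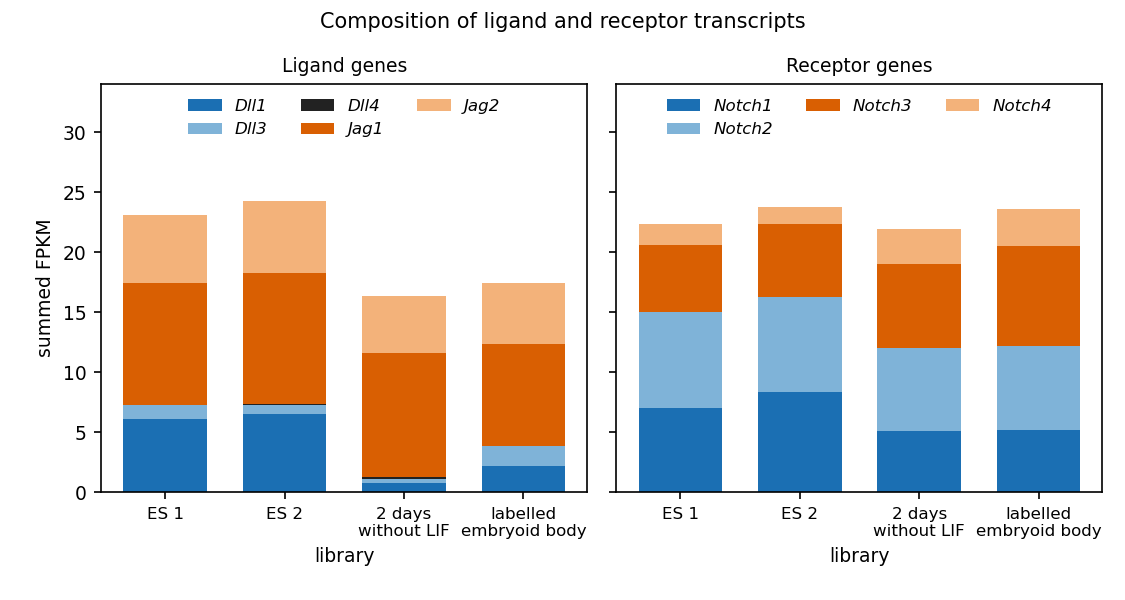
Summed FPKM of the ligand genes (left) and the receptor genes (right) in each library, stacked by gene; Dll4 and Notch4 are shown to complete the families. The ligand bar is 23.1 and 24.3 FPKM in ES cells and 16.4 and 17.4 in the derived libraries, with the narrowest Dll1 layer at 2 days, while the receptor bars span 21.9 to 23.8 FPKM.

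The receptor genes differed in their shares while their sum stayed within a narrow range. Notch1, the receptor needed for early somite and vascular development, was at 6.98 and 8.36 FPKM in ES cells, 5.05 in the 2-day library and 5.17 in the 5-day library. Notch1 was thus lower in both derived libraries, by 0.51 and 0.49 on the log2(FPKM + 1) scale from the ES mean, next to 0.23 between the ES libraries. Notch2, a broadly expressed receptor, was at 7.99 and 7.90 FPKM in ES cells, 6.95 and 6.97 in the derived libraries, a difference of -0.17 in each. Notch2 was the member with the closest ES values, 1.01-fold apart.

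Notch3, a receptor best known in vascular smooth muscle and pericytes, was the 1 member above both ES libraries in both derived libraries. It was at 5.65 and 6.05 FPKM in ES cells, 6.97 in the 2-day library and 8.35 in the 5-day library. The differences from the ES mean were 0.22 and 0.45 on the log2(FPKM + 1) scale, under the 2-fold limit. Notch3 was the third receptor in ES cells, and stood above Notch1 in both derived libraries. The ratio of Notch3 to Notch1 was 0.810 and 0.725 in ES cells, 1.38 in the 2-day library and 1.62 in the 5-day library. Within the summed FPKM of the Notch genes, Notch1 held 31.2% and 35.1% in ES cells, 23.0% and 21.9% in the derived libraries, and Notch3 held 25.3% and 25.5%, 31.8% and 35.4%. The receptor sum, with Notch4, was 22.4, 23.8, 21.9 and 23.6 FPKM in the order ES 1, ES 2, 2-day and 5-day library.

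Notch1 and Notch3 each overlap genes on the opposite strand, and whether counting used the strand is not given in the sources used here. Opposite Notch1, 0610009E02Rik was at 0.234 and 0.300 FPKM in ES cells, 1.97 in the 2-day library and 0.548 in the 5-day library. Opposite Notch3, Gm17276 was at 0.0231 and 0.0136 FPKM in ES cells, 0.854 and 0.151 in the derived libraries. A second gene opposite Notch1, Gm13568, was at 0.513 FPKM in the 2-day library and listed at 0 in the other 3. All 3 non-coding genes were highest in the 2-day library. The overlap was scored between whole gene bodies and may not touch exons. Reads of a shared stretch could not be told apart if counting ignored the strand. The part of the 3 non-coding genes in the Notch1 and Notch3 values was not tested.

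Hes1, a basic helix-loop-helix repressor and the classical direct target of Notch, had the second large difference among the members. Its gene (ENSMUSG00000022528.7) lies on chromosome 16, 30064384 to 30067796, plus strand. Hes1 was at 30.0 FPKM in ES 1, 26.1 in ES 2, 11.7 in the 2-day library and 11.7 in the 5-day library. Both derived libraries lay below both ES libraries and at the same level as each other, with counting intervals of 10.6 to 12.8 and 10.8 to 12.7 FPKM. The ES mean of 28.0 ± 2.74 FPKM (SD, n = 2) was 2.40 and 2.39 times the derived levels, a log2(FPKM + 1) difference of -1.19 in each. Hes1 thus differed from Dll1, whose level was 2.89 times higher in the 5-day library than in the 2-day library. Hes1 remained the most abundant member in every library.

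Hes6, a HES-family protein, is known for promoting neuronal differentiation and for opposing HES1. It was at 6.52 and 6.64 FPKM in ES cells, 4.76 in the 2-day library and 5.87 in the 5-day library. Its values lay below both ES libraries, by 0.40 and 0.14 on the log2(FPKM + 1) scale. Hey1, a HES-related repressor of heart and vessel development, was at 1.45 and 1.32 FPKM in ES cells, 0.758 and 1.12 in the derived libraries. The 2-day level of Hey1 was 54.7% of the ES mean and rests on about 45 fragments, with an interval of 0.547 to 1.00 FPKM, below the ES values. Relative to Hes6, Hes1 was 4.60-fold and 3.93-fold higher in ES cells, 2.45-fold in the 2-day library and 1.99-fold in the 5-day library.

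The 3 target genes share a short motif near the end of the protein, WRPW in HES proteins and YRPW in HEY proteins, that recruits Groucho/TLE corepressors in the case of HES. The last 45 coding bases before the stop codon are shown from GENCODE transcripts because they mark which members belong to which family, with the codons of the motif in capitals.
Hes1: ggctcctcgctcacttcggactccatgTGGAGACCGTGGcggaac
Hes6: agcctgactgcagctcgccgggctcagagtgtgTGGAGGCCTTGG
Hey1: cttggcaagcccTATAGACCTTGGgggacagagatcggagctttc
The motif ends the coding sequence of Hes6, is followed by 2 codons in Hes1 and by 7 in Hey1, whose first motif codon is TAT in place of TGG. The corepressor gene Tle1 was at 18.1 and 18.9 FPKM in ES cells, 17.8 and 18.5 in the derived libraries. Tle4 was at 55.4 and 57.3 FPKM in ES cells, 53.9 and 58.8 in the derived libraries. Tle3 was at 34.5 and 29.8 FPKM in ES cells, 19.1 and 27.9 in the derived libraries. Tle2 was at 0.424 and 0.216 FPKM in ES cells, 0.524 in the 2-day library and 1.55 in the 5-day library. The related Aes was at 37.4 and 41.7 FPKM in ES cells, 55.1 and 41.2 in the derived libraries. These genes were named after their values were seen.

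The genes with a profile most like that of Dll1 were sought among 9121 named genes at 5 FPKM or more, by the Euclidean distance over the 4 libraries of log2(FPKM + 1) from the ES mean. They were Fosb, a subunit of AP-1 (distance 0.305), the non-coding Kis2 (0.544) and the imprinted growth factor Igf2 (0.578), which overlaps an opposite-strand gene. Fosb was at 5.71 and 5.29 FPKM in ES cells, 0.294 and 1.95 in the derived libraries. It was chosen for its likeness to Dll1 over these libraries, so the shared minimum at 2 days is no separate finding. Nearest to Hes1 were Gap43, a growth cone protein gene (0.163), the small heat shock protein gene Hspb8 (0.240) and Herpud1, a gene of the endoplasmic reticulum stress response (0.249). Herpud1 also overlaps an opposite-strand gene. Gap43 was at 13.3 and 13.5 FPKM in ES cells, 5.46 and 5.11 in the derived libraries.

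Of the other genes of the pathway, 1 passed the size rule, Dlk1, and it was lower in both derived libraries. The list held 95 further genes in 10 roles, and 62 passed the filter. limma called 0 of the 62 in either comparison at an adjusted p under 0.05 and a 2-fold difference, where it called 7.67% of all genes in the 2-day library (7.32% higher, 0.357% lower) and 0.396% in the 5-day library, all higher. At an unadjusted p under 0.05 there were 25 and 20 of the 62 (40.3% and 32.3%) in the order 2-day and 5-day, next to 37.2% and 27.7% of all genes. The median log2 difference of the 62 was -0.00 and -0.01 in limma's fit, beside 0.04 and -0.01 over all genes. The fit has 1 residual degree of freedom, from the ES pair, and assumes that each lone library varies as the ES pair does.

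**Figure D4:**
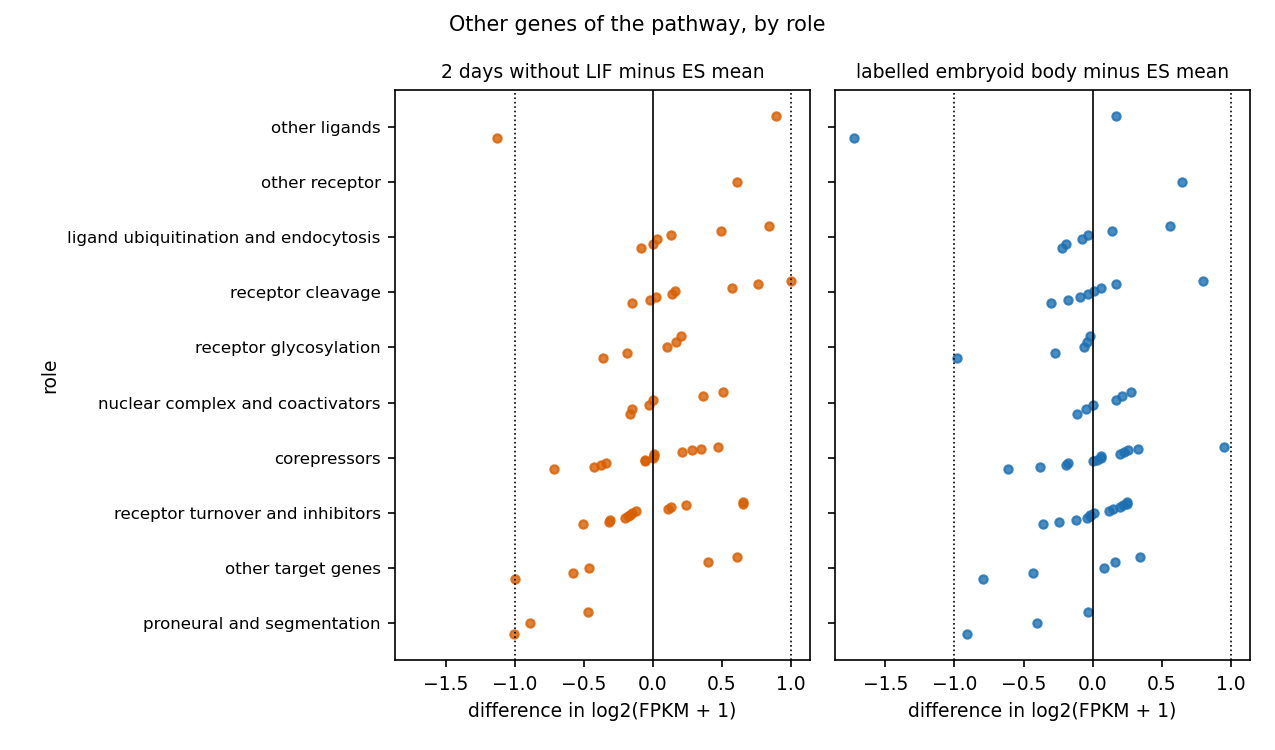
Difference in log2(FPKM + 1) from the ES mean for the 62 tested genes of the pathway list, by role, in the 2-day library (left) and in the 5-day library (right); each point is a gene and dotted lines mark 1 and -1. Dlk1 is the point past -1 among the other ligands in both panels, at -1.13 and -1.73. Adam10, Bhlhe41 and Ripply1 lie at the limits on the left and did not pass the size rule.

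Among the ligand-related genes, Dlk1, an imprinted Delta-like protein without the receptor-binding DSL domain, was at 6.63 and 5.91 FPKM in ES cells, 2.31 in the 2-day library and 1.18 in the 5-day library. The limma adjusted p was 0.0748 and 0.139 over all genes. In the set of 6808 tested genes clear of any gene on the opposite strand, Dlk1 fell in both comparisons (limma adjusted p = 0.0230 and 0.0244), where 3.04% and 2.31% of genes were called (0.602% and 0.778% lower). It was the 1 call among 22 pathway genes in that set, in each comparison. Notch4, the receptor of endothelium, was at 1.74 and 1.48 FPKM in ES cells, 2.97 and 3.09 in the derived libraries (log2 differences 0.61 and 0.65, limma adjusted p = 0.113 and 0.155). Notch4 overlaps a gene on the opposite strand. Among the other tested pathway genes named here, so do Tle1, Tle2, Mib1, Adam17, Psenen, Maml1, Rbpj, Ncor1, Itch, Ccnd1, Cdkn1a, Bhlhe41, Neurod1 and Pax6.

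Of the genes that activate ligand and receptor, 6 of 7 in ligand ubiquitination and endocytosis and 8 of 10 in receptor cleavage passed the filter, and limma called 0 of them. Neurl1b, Aph1b and Aph1c stayed under 1 FPKM in every library. Mib1, the ubiquitin ligase that lets a ligand pull on its receptor, was at 25.2 and 26.7 FPKM in ES cells, 26.5 and 24.4 in the derived libraries. The endocytic adaptor gene Epn1 was at 29.2 and 29.5 FPKM, then 27.5 and 25.6. Adam17, a protease that can cut the receptor, was at 28.4 and 30.2 FPKM in ES cells, 43.9 in the 2-day library and 30.7 in the 5-day library (limma adjusted p = 0.0810 and 0.571). The gamma-secretase subunit gene Psenen was at 29.9 and 31.2 FPKM, then 34.2 and 34.5. Adam10, which makes the ligand-dependent cut of the receptor, was singled out after its values were seen. It was at 9.92 and 12.1 FPKM in ES cells, 22.9 and 19.8 in the derived libraries (log2 differences 1.00 and 0.80, limma adjusted p = 0.117 and 0.186), so both derived libraries lay above both ES libraries. In the opposite-strand-clear set limma did not call Adam10 either, with the 2-fold limit not reached.

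The sugar-adding enzymes of the receptor gave 0 calls among 5 genes tested. Pofut1, the fucosyltransferase that Notch needs, was at 8.73 and 9.20 FPKM in ES cells, 10.2 and 8.67 in the derived libraries, and Poglut1, the glucosyltransferase, at 37.6 and 41.4, then 34.4 and 37.7. Lfng, the fringe enzyme that tunes the choice between Delta-like and Jagged ligands, was singled out after its values were seen. It was at 1.82 and 1.29 FPKM in ES cells, 1.92 in the 2-day library and 0.289 in the 5-day library. The 5-day level was 0.187 times the ES mean, a log2(FPKM + 1) difference of -0.98. Lfng did not reach the 2-fold limit on that scale and was not called in the opposite-strand-clear set either.

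Of the nuclear partners, limma called 0 of 6 tested genes of the RBPJ complex and its coactivators and 0 of 13 corepressor genes. The Mastermind-like genes differed in level: Maml1 was at 12.4 and 12.5 FPKM in ES cells and 11.1 in the 2-day library, while Maml2 (up to 0.751 FPKM) and Maml3 (up to 0.710 FPKM) were too low to be tested. Rbpj was at 89.1 and 89.7 FPKM in ES cells, 115 in the 2-day library and 103 in the 5-day library (log2 differences 0.36 and 0.21, limma adjusted p = 0.0527 and 0.140). It lay above both ES libraries in each, while Hes1 lay below. The acetyltransferase gene Kat2a was at 56.7 and 60.4 FPKM, then 57.4 and 58.4. Ncor1, a corepressor, was at 243 and 249.7 FPKM in ES cells, 314 and 289 in the derived libraries, and Ctbp2 at 235 and 233, then 179 and 179.9. Of 13 tested genes of receptor turnover 0 were called, with the ubiquitin ligase genes Nedd4 at 489 and 509.8 FPKM in ES cells, 441 and 458 in the derived libraries, and Itch at 41.8 and 43.1, then 46.5 and 41.8.

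Of 16 other known target genes, 5 passed the filter of 1 FPKM. Hes5, the target of Notch in neural progenitors, was at 0.0561 and 0.0658 FPKM in ES cells and listed at 0 in both derived libraries. Hey2 and the feedback inhibitor gene Nrarp stayed under 1 FPKM in every library. Ccnd1 (cyclin D1) was at 111 and 109.9 FPKM in ES cells, 80.0 and 81.7 in the derived libraries, with a limma adjusted p of 0.0438 and 0.139 but under the 2-fold limit. Cdkn1a, the p21 inhibitor gene, was at 17.6 and 18.3 FPKM, then 24.1 and 23.1. Bhlhe41, singled out after its values were seen, was at 2.20 and 1.76 FPKM in ES cells, 0.482 in the 2-day library and 2.33 in the 5-day library (limma adjusted p = 0.0995 and 0.549). Like Dll3, Bhlhe41 was thus lowest in the 2-day library and highest in the 5-day library. Its 5-day level lay close to that of ES 1, however, with a log2 difference of 0.16 from the ES mean.

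The proneural and segmentation factors that accompany Dll1, Dll3 and Hes6 in the embryo were mostly low: 3 of 16 passed the filter of 1 FPKM. Neurog2, Neurod4 and Msgn1 were listed at 0 in all 4 libraries. Others were detected below the filter, among them Insm1, named after its values were seen, at 0.566 and 0.571 FPKM in ES cells, 0.0904 in the 2-day library and 0.110 in the 5-day library. Of the 3 tested, Neurod1 was at 4.39 and 4.22 FPKM in ES cells, 2.83 and 4.21 in the derived libraries, and Ripply1, a segmentation repressor gene, at 6.11 and 6.95, then 2.74 and 3.01 (log2 differences of Ripply1 -1.01 and -0.91, limma adjusted p = 0.0888 and 0.147). The third, Pax6, was at 2.44 and 2.21 FPKM in ES cells, 0.792 and 1.52 in the derived libraries; it was named after its values were seen.

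Markers of other cells in the cultures moved between libraries. The sum of the 18 fibroblast markers was 159 and 159 FPKM in ES cells, 322 in the 2-day library and 116 in the 5-day library, with 12 to 15 of them at 1 FPKM or more and Lum, of the 3 defining markers, listed at 0 in ES 2. The direction at 5 days rests on Vim, the most abundant of the list: without it (left out after seeing the data) the sum was 57.8 and 57.1 FPKM in ES cells and 199 in the 2-day library, and the 5-day sum was likewise above both ES libraries. In the 5-day library 9 of the 18 lay above both ES libraries, among them Dcn at 11.1 FPKM against 0.695 and 0.664, and 6 below both. The 9 smooth muscle markers summed to 168 and 179 FPKM in ES cells, 436 in the 2-day library and 20.2 in the 5-day library, with 5 to 7 at 1 FPKM or more and 0 defining markers at 0. The 2-day library was thus the highest in both lists. Dll1, Dll3, Jag2, Notch1, Notch2, Hes6 and Hey1 were lowest in it, Notch2 by 6.95 against 6.97 FPKM in the 5-day library. The part of such cells in the members' values was not tested. Notch3 was highest in the 5-day library, where the smooth muscle markers were lowest and Acta2 and Tagln were at 1.06 and 1.26 FPKM. All 9 smooth muscle markers lay below both ES libraries there. Pdgfrb, of the fibroblast list and named after its values were seen, was highest there like Notch3. Pdgfrb was at 1.63 and 1.40 FPKM in ES cells, 3.25 in the 2-day library and 4.80 in the 5-day library. Most of the 18 fibroblast markers were instead highest in the 2-day library. Among these were Postn, at 22.7 FPKM against 2.66 in the 5-day library, and Pdgfra, at 1.51 against 1.25. The 8 endothelial markers summed to 21.1 and 21.1, 23.6 and 30.2 FPKM, with Cdh5 at 0.0828 FPKM or less in every library and listed at 0 in ES 1. The direction at 2 days rests on Pecam1, the most abundant of them. Without it (left out after seeing the data) the sums were 12.4 and 12.4, 10.9 and 14.5 FPKM. At 2 days 3 of the 8 lay above both ES libraries and 4 below both. The 8 neural progenitor markers summed to 19.8 to 22.2 FPKM over the 4 libraries, but without Tubb3, their most abundant gene, to 10.6 and 9.98 FPKM in ES cells, 8.55 in the 2-day library and 5.12 in the 5-day library. The 8 primitive streak markers summed to 4.59 and 4.45, 8.45 and 3.81 FPKM, with the defining marker Mesp1 listed at 0 in the 5-day library, and the 8 endoderm markers to 8.54 to 9.71 FPKM.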

How the data were processed

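The deposited table holds the authors' FPKM of 47633 genes in 4 libraries. The submitters' processing notes name STAR, Cufflinks, Trimmomatic 0.36 and mm10. Which annotation was counted, and whether by strand, is not given in the sources used here. Since FPKM is relative to the library total, a few abundant genes can lower all others: the 10 highest genes held 9.80% to 17.4% of the FPKM sum in 3 libraries and 44.7% after 2 days without LIF. Identifiers were matched without version to GENCODE M21 on mm10 (47219 matched, 414 did not). Promoter windows came from RefSeq, GRCm38.p6.

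The 15676 genes that reached 1 FPKM in any library were fitted on log2(FPKM + 1) with limma 3.58.1 (R 4.3.3; 3 groups, trend on mean expression, Benjamini-Hochberg adjustment over all genes). The groups came from the sample titles and sources. A call needed an adjusted p under 0.05 and a log2 difference of at least 1. The size rule needed that difference from both ES libraries. Depth was taken from the mode (log2 bins of 0.05) of the lowest products of FPKM and exon length among genes with a single transcript of 3000 nt or more; implied fragments use the union of exons, and intervals (exact Poisson, 95%) cover counting error only. The opposite-strand-clear set held protein-coding and long non-coding genes of at least 1000 nt. Further steps used matplotlib 3.10.9, scipy 1.17.1, pandas 2.3.3, numpy 2.4.6 and Python 3.11.15, and limma was tested on simulated data. The alternatives were another pseudocount, 2 scalings, 2 filters, the opposite-strand-clear set, limma without its trend, and each ES library left out.

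The members and lists were chosen with earlier results of these data known. Of each role, genes called or past the size rule were named (at most 4 per comparison), otherwise the 2 with the highest mean; for members past the size rule, the 3 most alike genes were named.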

Additional observations from a re-analysis of the deposited data

Results flagged for a closer look

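Dll3 lay below both ES libraries in the 2-day library (0.304 FPKM against 1.13 and 0.735) and above both in the 5-day library (1.64 FPKM). The 5-day library stood 1.02 above the 2-day library on the log2(FPKM + 1) scale. Pofut1 lay above both ES libraries at 2 days (10.2 FPKM against 8.73 and 9.20) and just below both in the 5-day library (8.67 FPKM), a log2 difference of -0.21 between the derived libraries. Each derived condition had 1 library, so neither difference was tested. The place of Pofut1 in the 5-day library depends on the scaling, and with either of the 2 scalings it lay between the ES libraries. Its difference from the ES mean there was -0.04, and -0.02 and -0.00 with the scalings.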

How the results depend on the processing

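The size rule took 2 members lower and 0 higher under each scaling and without either ES library, and with a pseudocount of 0.1 it took 3 lower in the 2-day library, Dll3 being the third. Leaving out an ES library loosens the rule, so such a run could add members but not lose any. The medians of the members moved from -0.42 to -0.52 and from -0.18 to -0.25 with that pseudocount. Over all genes, limma calls in the 2-day library were 1203, but 395 at a filter of 5 FPKM and 207 in the opposite-strand-clear set. In the 5-day library they were 62, but 131 with a pseudocount of 0.1, 138 without a filter, 41 at 5 FPKM, 157 in the clear set and 0 without the trend (4504 genes at an unadjusted p under 0.05 by limma). Calls among the other pathway genes went from 0 to 1 in the clear set in each comparison, Dlk1 both times. The size rule over all genes took 1517 at 2 days, but 572 at 5 FPKM and 186 in the clear set; for the 5-day library it took 371, but 1012 with a pseudocount of 0.1, 233 at 5 FPKM and 141 in the clear set. Without ES replicate 1 it took 1068, the highest value of the runs that left out 1 ES library, and the lowest was 525. For the derived libraries against each other, 3 settings were added after seeing the data and gave 2303 to 3387 genes, against 2336. The filter of 5 FPKM and the clear set test fewer genes by construction, and leaving out an ES library can only raise the size rule count. The 5-day limma calls rose from 62 to 157 in the clear set although it tests fewer genes. In that set 15 genes were 2-fold or more apart between the ES libraries, against 684 over all genes. The cause of that rise was not tested. Nor was the cause of the changes with the pseudocount, without a filter and without the trend, or of the larger rise without ES 1. Differences near 0 changed sign with scaling: Mib1 at 2 days to -0.02, and in the 5-day library Kat2a to 0.02 and 0.04, Itch to 0.00 and 0.02 and Neurod1 to 0.01. Of the values of single members under the alternatives, 82 moved by less than the ES spread and 18 by more. The 82 include all runs that left out an ES library, which by construction cannot move a value by more than that spread. The 18 all came from the pseudocount and the scalings. Jag1 at 2 days was the 1 member whose sign differed between settings. limma could not be fitted without an ES library, since no residual degree of freedom remains. No paired analysis was possible, since each derived condition had 1 library and no label used here ties it to ES 1 or to ES 2. Depth limits Dll3 and Hey1 most, with about 16 and 45 fragments at 2 days.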
